A study of Mus musculus with 24 samples.

Results

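The immunoglobulin loci hold the gene segments from which B cells assemble their antigen receptor: the heavy-chain locus Igh, the kappa light-chain locus Igk and the lambda light-chain locus Igl. All listed H3K4me3 regions that overlapped these loci were taken, with limits given on the mouse build GRCm39. Igh was taken as chromosome 12 from 113.20 to 115.98 Mb, Igk as chromosome 6 from 67.53 to 70.71 Mb and Igl as chromosome 16 from 18.84 to 19.08 Mb. They held 219 of 63425 listed regions, of which 36 lay in Igh, 126 in Igk and 57 in Igl.

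The cells were leukemic splenocytes of C57BL/6 mice of the Eµ-TCL1A model of chronic lymphocytic leukemia (CLL). The wild-type group (WT) was untreated, and the knockdown group (KD) had knockdown of KDM1A, a demethylase of histone H3 lysine 4, as its labelled treatment. Both groups carry the same transgene, driven by a V promoter and the intronic enhancer of Igh, Eµ, and neither age, sex nor the way of knocking down is stated in the sources used here. Each group had 3 biological replicates with 2 technical replicates, as 6 libraries with the H3K4me3 antibody and 6 input libraries. The deposited lists compare the groups as a whole. A KD region was listed for the knockdown alone, a WT region for the wild type alone, and a common region for both. KD and WT regions are called one-sided here, and KD regions as a percentage of them are called the KD share. Each region has 1 score made by the authors, which the file headers do not define. It was used to rank regions within a list and to mark those scoring at least 10. The lists differ in how often a region reaches that score, so high scores are given by list.

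H3K4 trimethylation marks active promoters and the beginnings of transcribed genes. In developing B cells a V segment is joined to a J segment, in Igh with a D segment between them, and the joined V promoter then comes under enhancers at the J and C side. A B-cell leukemia is largely clonal, so its cells share the same joined segments. A V-side peak found in a single group is therefore a possible mark of clonal rearrangement. No rearrangement was read in these data, so this was not tested for any region below.

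In the RefSeq gene order of the assembly GRCm38.p6, used for names and neighbours only, Igh runs from the constant segments Igha, Ighe, Ighg2c, Ighg2b, Ighg1, Ighg3, Ighd and Ighm through 4 J and 20 D segments to 183 V segments. Igk runs from 162 V segments through 5 J segments to Igkc, the constant segment. Igl is short, with Iglv1 in the middle and Iglv3 and Iglv2 at its high-coordinate end, among 5 J and 4 constant segments. These counts include pseudogenes: 73 in Igh, 60 in Igk and 3 in Igl. No region could be matched to a single segment, because that assembly is not the build of the lists.

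Of the 219 regions, 82 were KD regions, 26 were WT regions and 111 were common. One-sided regions thus made up 49.3% (95% Wilson interval 42.8 to 55.9%), against 31.8% of all regions on the assembled chromosomes. Taken by locus, the interval of the one-sided share included 31.8% in Igl and lay above it in Igh and Igk. KD regions made up 23.4% and WT regions 8.40% of all regions. The KD share over the loci was 75.9% (67.1 to 83.0%), close to the 73.6% (73.0 to 74.2%) of the whole comparison, but the loci differed among themselves. It was 33.3% (17.2 to 54.6%) in Igh, 87.9% (77.9 to 93.7%) in Igk and 81.0% (60.0 to 92.3%) in Igl. These intervals cover counting error only and treat neighbouring regions as independent. The lists give no value per library, so none of these differences could be set against the spread between mice, and no test across replicates was possible. Fewer cells that carry a mark and less of the mark per cell cannot be told apart in these bulk samples.

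**Figure D1:**
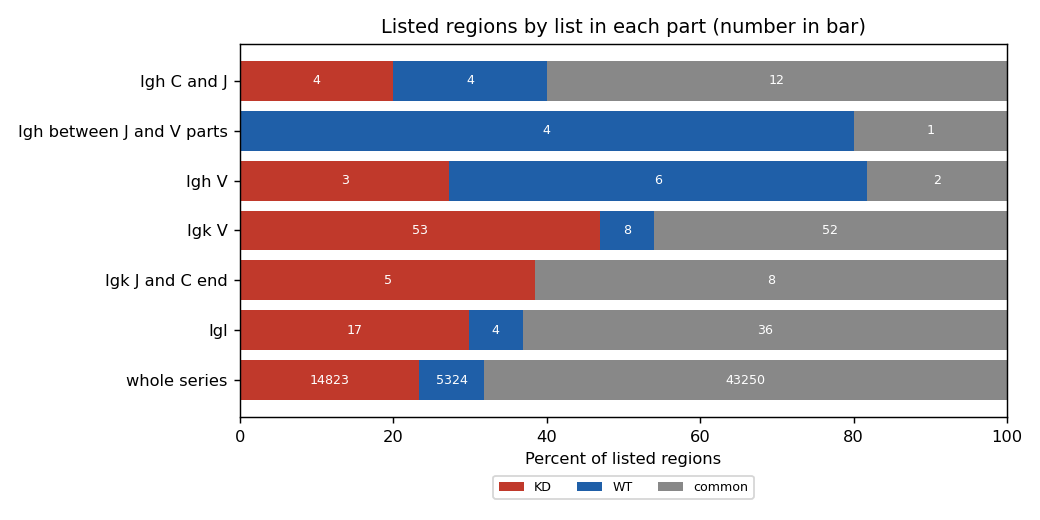
Percent of listed H3K4me3 regions that were KD (red), WT (blue) or common (grey), by part of each locus and over the assembled chromosomes, with the number of regions in each bar. WT regions were the largest class in the V part of Igh (6 of 11), and KD regions in the V part of Igk (53 of 113).

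High scores were frequent among the KD regions of the loci. A score of at least 10 was held by 17 of 82 KD regions, or 20.7% (13.4 to 30.7%), against 5.67% of the whole KD list. It was held by 7 of 26 WT regions, or 26.9% (13.7 to 46.1%), an interval that includes the 17.0% of the whole WT list. Both lists together gave 24 of 108, against 8.66% of all one-sided regions. Of the 24, 10 lay in Igh (3 KD and 7 WT regions), 12 in Igk and 2 in Igl, and those of Igk and Igl were all KD regions. The KD share at this score was 70.8% (50.8 to 85.1%) in the loci and 48.2% in the whole comparison. The pooled share rested on Igk, since Igh went the other way, with 3 KD and 7 WT regions. Of the 12 regions in Igk, 4 lay within 3549 bp, so pieces of a stretch were counted separately. Whether the pooled share at high scores differs from the whole comparison with such pieces joined was not tested.

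Separation from shared marks was more frequent in the loci together and in Igk than in the whole comparison. The loci together had 39 one-sided regions, or 36.1% (27.7 to 45.5%), more than 1 kb from any common region, against 26.0% of all one-sided regions. It was 9 of 21 (42.9%) in Igh, 27 of 66 (40.9%, 29.9 to 53.0%) in Igk and 3 of 21 (14.3%) in Igl. On chromosome 6 outside Igk it was 31.5% (28.5 to 34.7%), which the interval of Igk includes. In the 1 Mb below Igk it was 4 of 13 (30.8%), and in the 1 Mb above it 2 of 9 (22.2%). Whether mouse clones, the knockdown or the handling of reads from near-identical V segments account for the separated regions of the loci was not tested.

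In the constant and J part of Igh, below 113.40 Mb, most regions were shared, as over all regions. One-sided regions made up 8 of 20, and the interval of this share (21.9 to 61.3%) includes the 31.8% of all regions. This part held 12 common, 4 KD and 4 WT regions, and each of its 8 one-sided regions had a common region no farther than 1 kb away. The centre of the shared mark was a domain (regions of any list no more than 1 kb apart) of 13091 bp at chr12:113382413-113395503. It comprised 6 common regions covering 8083 bp, 3 WT regions covering 3699 bp and 1 KD region covering 2115 bp. The WT regions lay within the shared stretch, at chr12:113384802-113386777 (score 5.68), chr12:113387203-113388024 (3.84) and chr12:113391794-113392694 (4.99). All 3 overlapped common regions.

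The KD region of this domain was among the highest of its list. It lay at the V-side end, at chr12:113393389-113395503, began at the base after the last common region and scored 54.9, rank 5 of all 14823 KD regions. The domain thus differed in both directions, with 3 WT regions inside it and 1 KD region as its outer end. The transgene carries Igh enhancer sequence in both groups, and where it shares sequence with the native locus, reads from each cannot be told apart. Its part in these regions was not tested.

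The 6 common regions of this domain lay at chr12:113382413-113382679, chr12:113382976-113384820, chr12:113385440-113385837, chr12:113386770-113387328, chr12:113387799-113391820 and chr12:113392397-113393388. The longest, of 4022 bp, scored 1.41, and the highest common score, 2.25, was at the region of 398 bp inside the first WT region. A second shared site farther into the constant part had a common region of 4592 bp at chr12:113325693-113330284 (score 0.75), the longest common region of Igh. It had 3 KD regions beside or overlapping it, at chr12:113324693-113325326 (4.67), chr12:113325969-113326203 (3.47) and chr12:113330063-113330779 (5.10), and no WT region.

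The low-coordinate end of Igh held 5 common regions and 1 WT region. The common regions lay at chr12:113199607-113200531, which crosses the lower limit, chr12:113204271-113204536, chr12:113206350-113206949, chr12:113219567-113221023 and chr12:113221144-113221500, with scores of 0.09 to 1.10. The WT region, at chr12:113203105-113203361, scored 4.28.

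Between the J part and the V part, from 113.40 to 113.50 Mb, the one-sided regions were all from the wild type. They were 4 WT regions in a domain of 4010 bp at chr12:113445817-113449826 with a single common region of 466 bp. The largest, chr12:113445817-113447489, scored 11.96. The others, at chr12:113447754-113448227, chr12:113448395-113448735 and chr12:113449510-113449826, scored 5.23, 4.52 and 3.55. No KD region lay within 50 kb of this domain on either side; the nearest was 50313 bp away, at the J end.

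In the V part of Igh, above 113.50 Mb, shared H3K4me3 was nearly absent from the lists. The part spans most of the locus and held 2 common regions, 3 KD regions and 6 WT regions, so that one-sided regions made up 9 of 11 (81.8%, 52.3 to 94.9%). Of the 9, 8 scored at least 10 and lay over 5 kb from any common region. They formed solitary peaks from both lists, with lengths of 347 to 3294 bp. The 6 WT regions among them had a median of 742 bp, against 569 bp for WT regions as far from common regions outside the loci. The 2 KD regions were 347 and 1714 bp long, against a median of 374 bp for such KD regions outside the loci. The 8 peaks belonged to 8 separate domains with no common region, out of 10 domains in the part.

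The highest-ranked was a KD region of 1714 bp at chr12:113536580-113538293. Its score of 85.9 was the second highest of all KD regions (rank 2), with the closest common region 88722 bp away and the closest region of any list 86753 bp away. It was the V-side region nearest to the J part. A second KD region, of 347 bp at chr12:114477037-114477383, scored 26.1. The third, at chr12:115172097-115172835, scored 5.67, touched a common region of 298 bp and was the single one-sided region of the V part that did not stand alone.

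The WT regions of the V part had scores of 10.6 to 38.6. The highest, at chr12:113860040-113860593, ranked 25 of 5324 WT regions on the assembled chromosomes and had no other region of any list within 321746 bp. The next were at chr12:114251755-114252683 (score 33.3, rank 28), chr12:114330140-114331490 (28.4, rank 42) and chr12:114487109-114487576 (26.2, rank 56). The last WT region on the high-coordinate side, at chr12:115875996-115876401, scored 19.6. The longest, of 3294 bp at chr12:114340842-114344135, had the lowest score, 10.6, and lay 9351 bp from the WT region before it.

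At one place KD and WT regions were close neighbours. The KD region at chr12:114477037-114477383 and the WT region at chr12:114487109-114487576 were 9725 bp apart. The first ranked 67 in the KD list and the second 56 in the WT list. Their gaps to the closest common region were 694415 and 684222 bp. The V part thus held high-scoring peaks unique to either group at different positions.

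**Figure D2:**
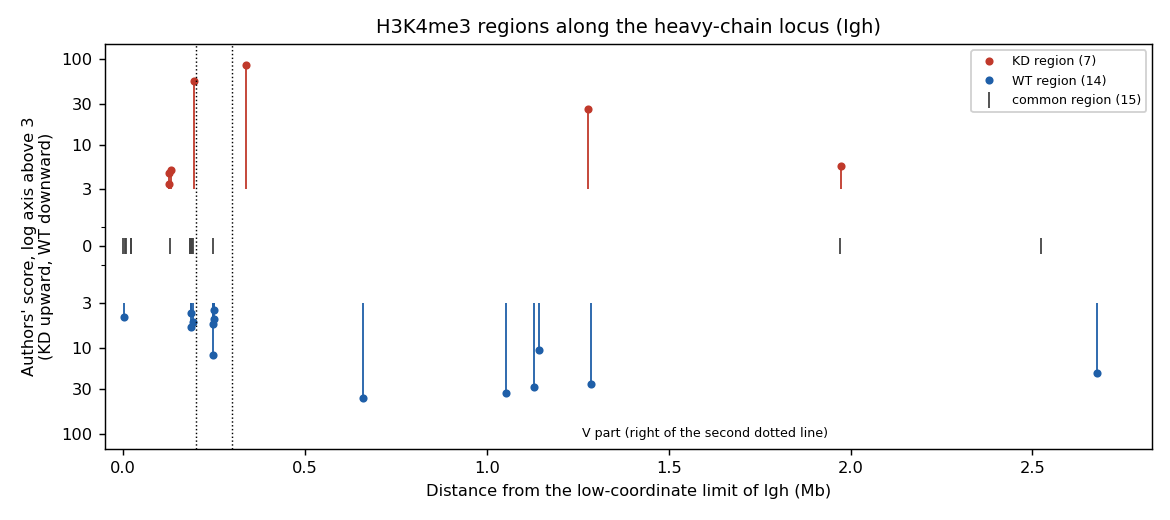
Listed regions along Igh, by distance of their midpoint from the low-coordinate limit (x, Mb), with the authors' score of KD regions drawn upward and of WT regions downward (y, log axis above 3) and common regions as ticks at 0 without their score. The dotted lines bound the stretch between the J part and the V part; right of them 9 one-sided regions and 2 common regions are spread over the V part.

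Solitary one-sided regions elsewhere in the genome give the background for those of the V parts. Outside the 3 loci, 2085 KD and 1165 WT regions lay more than 5 kb from any common region. Of these, 24.2% (22.4 to 26.1%) of the KD regions and 27.6% (25.1 to 30.2%) of the WT regions scored at least 10, with median scores of 6.31 and 7.05. In the V part of Igh it was 6 of 6 WT regions (61.0 to 100%), with a median of 27.3, and 2 of 2 KD regions (34.2 to 100%). In the V part of Igk it was 7 of 22 KD regions (31.8%, 16.4 to 52.7%), with a median of 7.71, and its interval includes the share outside the loci.

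Igk held the most regions, and most of its one-sided regions were KD regions. Of its 66 one-sided regions 58 were KD regions and 8 were WT regions, beside 60 common regions. By covered bases the KD share was 82.7% in Igk, 87.4% in Igl and 32.1% in Igh. All 12 one-sided regions scoring at least 10 were KD regions (KD share 75.8 to 100%), against 48.2% of such regions in the whole comparison, while the WT scores of Igk reached 6.83. All 27 one-sided regions more than 1 kb from a common region were KD regions as well (87.5 to 100%), against 73.0% of such regions in the whole comparison. Both intervals overstate the precision, since some of these Igk regions were pieces of the same domain. On chromosome 6 outside Igk, 59 KD and 47 WT regions scored at least 10. There 206 KD and 71 WT regions lay more than 1 kb from a common region. KD regions alone made up 16 domains of Igk, and no domain of Igk held WT regions alone.

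The highest scores of Igk came from a pair of KD clusters about 12 kb apart in the low-coordinate part of the V segments. The first, a domain of 3549 bp at chr6:68079809-68083357, held 4 KD regions with scores of 25.0, 19.3, 28.8 and 15.0 and no common region. Its KD region at chr6:68082353-68082834 had the highest score of the locus, 28.8, with rank 51 of the KD list. The second, at chr6:68095108-68098865, held 3 KD regions with scores of 19.5, 19.0 and 7.25 and 1 common region of 215 bp at its high-coordinate end. The longest of the 3 spanned 2110 bp at chr6:68095809-68097918. No WT region lay within 130 kb of these clusters.

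Other high KD scores in Igk stood alone. The region of 435 bp at chr6:69020112-69020546 scored 21.7 and that of 372 bp at chr6:69036649-69037020 scored 16.5, 16102 bp farther on. Both lay more than 58 kb from any common region. The region at chr6:69727264-69728395 scored 12.9, with a gap of 12828 bp to common H3K4me3. The longest KD region of the locus, 3798 bp at chr6:69098341-69102138, scored 10.3 and overlapped common regions. Domains of KD regions alone were not all high in score: that of 2102 bp at chr6:69112579-69114680 held 4 KD regions with scores of 3.39 to 4.01.

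A single domain of Igk changed direction along its length. It spanned 11123 bp at chr6:68957014-68968136. Its low-coordinate side held the highest-scoring WT region of Igk, 3206 bp at chr6:68957425-68960630 (score 6.83), which overlapped a common region of 277 bp at its low-coordinate end and one of 610 bp at the other. After a gap of 1385 bp followed 4 KD regions, of which chr6:68962961-68965710 scored 13.5. The other KD regions scored 4.17, 10.03 and 9.75. KD and WT regions did not overlap each other there.

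The other 7 WT regions of Igk scored 3.32 to 5.77, and each touched or lay within 1 kb of common H3K4me3. A group of 3 WT regions, at chr6:68605627-68608323 (5.77), chr6:68608688-68608997 (3.32) and chr6:68609672-68610201 (5.27), lay before, within and across the end of a common region of 1440 bp. The remaining 4 were at chr6:67871941-67872401 (4.57), chr6:68229464-68229794 (3.84), chr6:68863850-68864189 (3.72) and chr6:69712574-69712789 (4.11). None of them was longer than 500 bp.

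At the J and C end of Igk, taken as the last 100 kb of the locus, common regions had KD regions at their V side. One-sided regions made up 38.5% (17.7 to 64.5%) of this end, an interval that includes the 31.8% of all regions. The longest common region of the 3 loci, 7741 bp at chr6:70697918-70705658 with a score of 0.64, lay there within a domain of 15577 bp. The domain held 7 common regions covering 11083 bp and 4 KD regions covering 5286 bp. The KD regions lay on its V side, at chr6:70690717-70692124 (5.37), chr6:70692285-70695293 (4.53), chr6:70695476-70695988 (4.58) and chr6:70697568-70697923 (4.88), and no WT region was listed in this end. Another KD region of this end, at chr6:70686895-70687412, scored 6.24. The other long common regions of Igk lay among the V segments, with 5537 bp at chr6:68229789-68235325 and 4108 bp at chr6:68859063-68863170.

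Along Igk, one-sided regions were unevenly spread. In 5 parts of equal length from the low-coordinate limit to the J and C end, KD regions numbered 7, 6, 19, 15 and 11. WT regions numbered 1, 4, 2, 1 and 0, and common regions 7, 18, 14, 9 and 12. Of the 12 KD regions scoring at least 10, 6 lay in the first part, 5 in the third and 1 in the fourth.

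**Figure D3:**
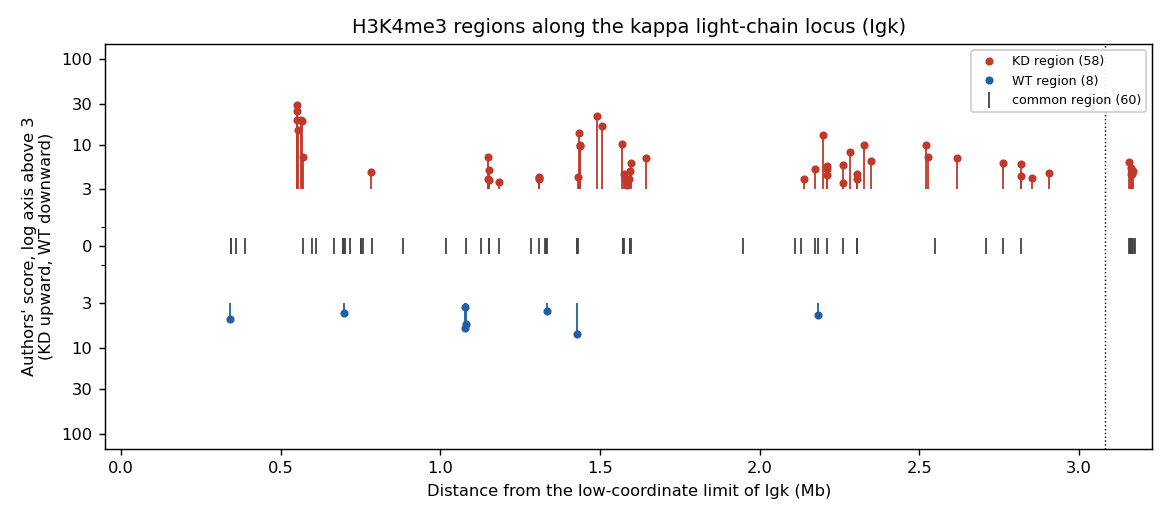
Listed regions along Igk, drawn as for Igh: distance from the low-coordinate limit (x, Mb) and the authors' score (y, log axis above 3; KD upward, WT downward, common regions as ticks at 0). The 58 KD regions are spread over most of the locus and reach 28.8, whereas the 8 WT regions stay at or below 6.83; the dotted line marks the last 100 kb.

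Igl, the smallest locus, was densely marked: listed regions covered 20.6% of it, against 3.25% of Igk and 1.29% of Igh. It held 36 common, 17 KD and 4 WT regions. No domain of Igl held both KD and WT regions. The WT regions were confined, in these lists, to the 2 lowest of 5 equal parts. The lowest part held 2 KD regions beside 2 WT regions. The highest part, the end at which the gene order places Iglv3 and Iglv2, held 15 of the 17 KD regions. Of these, 13 were pieces of 1 domain.

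The KD regions of Igl with the highest scores stood toward its ends. The highest, 3829 bp at chr16:18853854-18857682, scored 23.2 (rank 97), with a gap of 6803 bp to common H3K4me3, at the end where the gene order places Iglc1. A small KD region at chr16:18848742-18849085 (4.24) lay between it and the limit. At the other end the region at chr16:19036493-19037194 scored 16.1 and lay 288 bp from a common region of 217 bp.

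Farther on lay a domain of 17424 bp at chr16:19048019-19065442 in which 13 KD regions alternated with 12 common regions. KD regions covered 10192 bp of it and common regions 8720 bp. The KD scores here were low, from 3.46 to 5.91, and the highest belonged to the longest KD region of the 3 loci, 4658 bp at chr16:19052262-19056919. The KD regions next in score were chr16:19048019-19048365 (5.29), chr16:19048970-19049606 (4.88), chr16:19051577-19052138 (4.81), chr16:19062943-19063455 (4.80), chr16:19063569-19064383 (4.64), chr16:19051050-19051455 (4.57) and chr16:19057787-19058294 (4.52). The 12 common regions there included the highest common score of the loci, 2.76, at chr16:19055859-19056137, inside the longest KD region.

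The 4 WT regions of Igl lay in shared domains, at chr16:18880298-18881160 (5.28), chr16:18882192-18882739 (4.35), chr16:18899761-18900151 (3.91) and chr16:18901869-18902289 (3.65). The first 2 belonged to a domain of 9729 bp that also held the second longest common region of Igl, 4756 bp at chr16:18882716-18887471. The longest, 4864 bp at chr16:19014229-19019092 (score 0.38), had no one-sided region in its domain. The third longest spanned 2691 bp, at chr16:19058216-19060906.

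**Figure D4:**
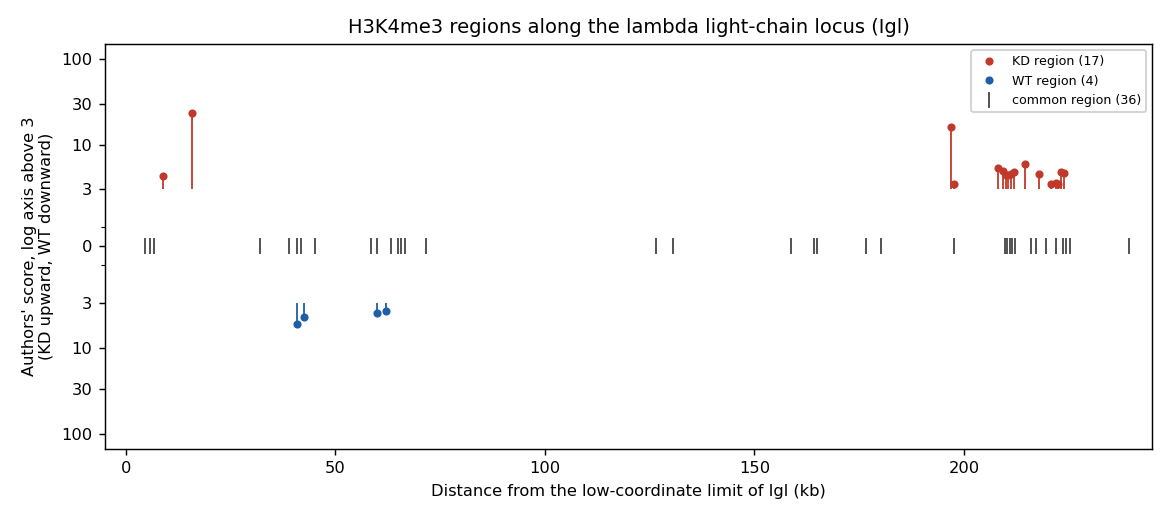
Listed regions along Igl, by distance from the low-coordinate limit (x, kb) and the authors' score (y, log axis above 3; KD upward, WT downward, common regions as ticks at 0). The 4 WT regions sit in the lower part, and 15 of 17 KD regions sit near the high-coordinate end.

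High scores went mostly with distance from shared marks. Of the 24 one-sided regions scoring at least 10, 19 (79.2%) lay more than 1 kb from any common region, against 39 of all 108. In the whole comparison it was 57.2% of the regions scoring at least 10, against 26.0% of all one-sided regions, so the link of score and distance is not particular to the loci. Of the 5 others 4 were KD regions, and the highest of these was at the J end of Igh (54.9). Bases were shared with a common region by 50 of the 108, against 10348 of all 20147 one-sided regions. Such overlap is thus not particular to the loci. In the loci 4 KD and 2 WT regions contained a common region whole, which was not counted elsewhere. The lists are therefore not separate stretches of the genome.

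**Figure D5:**
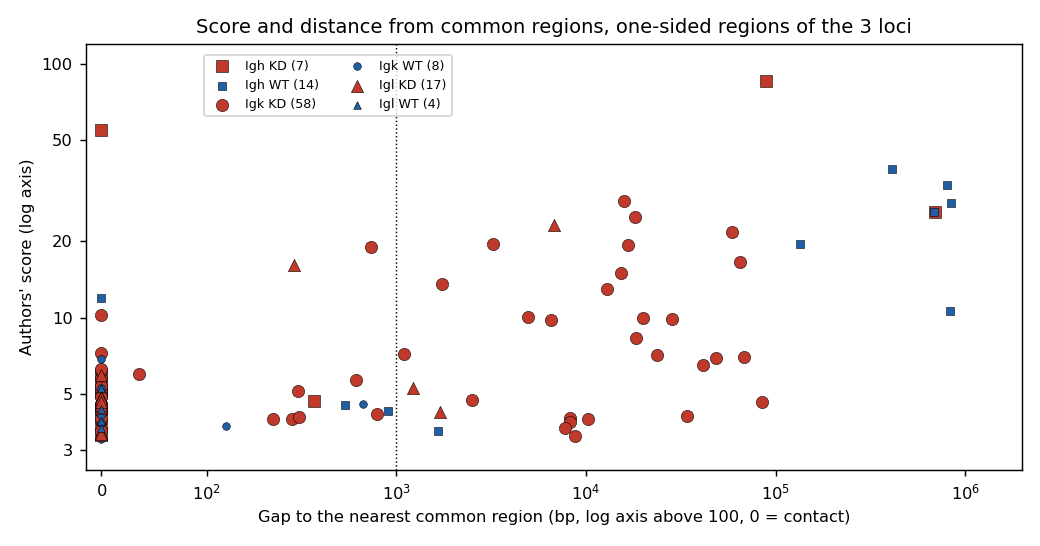
Authors' score (y, log axis) of the 108 one-sided regions against the gap to the nearest common region (x, bp, log axis above 100; 0 is contact), with colour for the list and shape for the locus. The dotted line is at 1 kb, scores are to be read within a colour, and at the far right a KD and a WT square of Igh nearly coincide.

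Domains give the contrast without counting the pieces of a stretch more than once. The loci held 88 domains, of which 26 (29.5%) had no common region, against 14.2% of the 28503 domains of the whole comparison. In Igh 2 domains held KD regions alone and 6 held WT regions alone. In Igk it was 16 and 0, and in Igl 2 and 0. The whole comparison had 2848 and 1190. Domains without a common region made up 47.1% in Igh, 29.1% in Igk and 12.5% in Igl. Domains with KD but no WT regions numbered 4 in Igh, 30 in Igk and 4 in Igl, and those with WT but no KD regions 8, 5 and 3. In the whole comparison they numbered 8556 and 3748.

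Common regions were shorter than in the whole list in each of the 3 loci. Their median was 462 bp, against 870 bp over all common regions, and it was 559 bp in Igh, 413 bp in Igk and 436 bp in Igl. KD regions had a median of 459 bp, against 341 bp over the KD list. WT regions had a median of 502 bp, against 429 bp over the WT list, with 688 bp in Igh, 401 bp in Igk and 485 bp in Igl.

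The surroundings of the loci bear on the KD shares. On chromosome 12 outside Igh the KD share was 58.8% (55.0 to 62.5%), and in the 1 Mb on the low-coordinate side of Igh it was 13 of 38, or 34.2% (21.2 to 50.1%), much like Igh itself. The low KD share is thus not particular to Igh. In that flank 3 of 38 one-sided regions scored at least 10, all 3 from the KD list, against 10 of 21 in Igh, of which 7 were WT regions. The 1 Mb above Igh held 3 one-sided regions, all WT regions. On chromosome 6 outside Igk the KD share was 69.2% (66.0 to 72.1%). In the 1 Mb below Igk it was 11 of 13 (84.6%, 57.8 to 95.7%), and in the 1 Mb above it 3 of 9 (33.3%, 12.1 to 64.6%). A KD share much like that of Igk was thus also present in its lower flank. On chromosome 16 outside Igl it was 80.4% (77.1 to 83.3%), within the interval of Igl. In the 1 Mb below Igl it was 6 of 13 (46.2%, 23.2 to 70.9%), and in the 1 Mb above it 2 of 3.

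Windows as long as each locus, laid end to end over the autosomes without those touching the loci, showed how common such stretches were. For Igh, 3 of 870 windows (0.34%) held at least 7 WT regions scoring 10 or more and 97 windows (11.1%) at least 3 such KD regions, while 359 windows held as many one-sided regions of any score. For Igk, 1 of 759 windows (0.13%) held at least 12 KD regions scoring 10 or more, and 7 windows (0.92%) held at least 27 one-sided regions more than 1 kb from a common region. Igl, with 21 one-sided and 36 common regions, was matched or exceeded by 78 and 42 of 10196 windows, of which 4973 held a common region. These counts describe other places of the same 2 groups and are not a test.

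The regions just inside and just outside the limits were as follows. At the low limit of Igk a WT region (score 7.78) lay 19590 bp outside and a WT region (4.57) was the first inside. At the high limit of Igh the last member was the WT region with a score of 19.6, and a common region (1.07) followed 30601 bp outside. At the other 4 limits the members and their outer neighbours nearest the limit were common regions with scores of 0.14 to 0.77.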

How the data were processed

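H3K4me3 ChIP-seq was made from wild-type and KDM1A-knockdown leukemic splenocytes. The submitters' processing notes name MACS2 2.2.6, Bowtie2 2.2.9 and SAMtools 1.6, with the build GRCm39. Not given in the sources used here are settings, filters, pooling and the treatment of reads that map to several places, as in near-identical V segments. Deposited by the authors were 3 lists of regions with 1 score per region, above 3 in one-sided and below 3 in common regions. The lists give no counts, so depth is unknown, and 0 columns hold values per library.

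Regions overlapping the limits by any length were taken, using matplotlib 3.10.9, numpy 2.4.6, pandas 2.3.3 and Python 3.11.15. Unplaced contigs were not compared. The code for gaps, overlaps and domains was tested on simulated data. Coordinates are 1-based.

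The loci and the summaries were chosen with earlier results of these data known. Named were the 10 highest-scoring regions per locus and direction, all common regions of the Igh constant and J part and the 3 longest common regions per locus; other regions were named after their values were seen. Comparisons with flanks and windows describe these lists and are not tests. Segments, motifs, sequences and B-cell markers were not analysed here, since the gene table is of another build. Alternatives were score, length, limits, overlap, joining, covered bases, gaps, windows and each locus left out.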

Additional observations from a re-analysis of the deposited data

How the results depend on the processing

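Over 92 alternative values, 27 moved outside the reported share's counting interval or by over 1.5 times for a count, and 65 did not; the KD share stayed on its side of 50% in the 3 loci together and in each locus under every alternative run. Fewer regions follow by construction from a minimum or from leaving out a locus; for the other shifts the cause was not tested. At a minimum score of 5 there were 41 KD and 13 WT regions, a one-sided share of 32.7%, and 53.7% of one-sided regions lay apart from common regions. At a minimum of 10 it was 17 and 7 regions, 17.8% and 79.2%. The minimum was put on one-sided regions alone, so these one-sided shares cannot be set against the 31.8% of all regions. In the whole comparison 1745 one-sided regions scored at least 10, beside 43250 common regions, and 57.2% of the 1745 lay apart. The whole comparison was not cut at 5. The KD share was then 70.8% in the loci against 48.2% in the whole comparison, and it was 100% in Igk and in Igl (12 and 2 regions). At a minimum of 20 it was 63.6% over the loci and 100% in Igk and Igl (3 and 1 regions). Joining regions of a list within 1 kb left 46 KD and 66 common regions and a KD share of 55.6% in Igl, where the pieces of the block at its high-coordinate end became few. A length of at least 500 bp left 39 KD, 13 WT and 52 common regions. Without Igh there were 12 WT regions and a KD share of 86.2%. Without Igk there were 24 KD and 51 common regions and a KD share of 57.1%, so Igk carried the pooled share. By covered bases the one-sided share was 42.7%. With contact alone counted as near, 49.1% lay apart. With windows shifted by 0.5 of their length, 6 windows, against 3, held as many one-sided regions scoring at least 10 as Igk. The minimum of 20, that of 10 for regions apart, sites within 5 kb and V parts alone were added after seeing the data. No paired analysis was possible because no list gives values by replicate; leaving out a replicate was likewise not possible. Depth is unknown, so what it limits cannot be stated.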
